A study of Mus musculus with 4 samples.

Results

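Hox genes were described in mesenchymal stromal cells (MSCs), the stromal cells that form bone and house blood stem cells in the marrow. The members were the rows of the deposited count table whose gene symbol is Hox, a cluster letter from a to d and a number. The rule found 39 of the 56980 listed genes, 11 in the Hoxa cluster, 10 in Hoxb, 9 in Hoxc and 9 in Hoxd. The 4 libraries form 1 group: each held 100 cells from 1 male wild-type mouse of the strain C57BL/6J, 14 weeks old, and no mouse was treated. The cells had been sorted from bone marrow as CD45- Ter119- CD31- CD51+ PDGFRa+ Sca1-, and the study's methods give flushed and digested femurs as the source of such cells. There is no second group, bone or cell type in these data, so the comparisons below are between Hox genes within a mouse.

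Hox genes encode homeodomain transcription factors that give embryonic cells their position along the body axis. In the mouse they lie in 4 clusters, and genes with the same number in different clusters are paralogues of common descent. Low numbers are used towards the head and high numbers towards the tail. In the limb, groups 9 and 10 pattern the proximal segment, which in the hindlimb holds the femur, group 11 the middle segment, and groups 12 and 13 the hand and foot. Adult stromal cells are known to keep part of this code, whereas skeletal cells that descend from cranial neural crest largely lack Hox expression. Blood progenitors also use Hox genes, mainly of the Hoxa and Hoxb clusters.

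The libraries held between 22738604 and 43545349 counts, and between 3111 and 7231 of them fell on Hox genes. Counts were converted to TPM, a level per base of gene length that is scaled to the same sum in each library. As the study's methods do, a gene counted as expressed if the median of the 4 mice lay above 1 TPM. All 8 stromal and niche markers (among them Pdgfra, Cxcl12 and Lepr) and all 5 osteoblast markers exceeded 1 TPM in every mouse, with summed levels of 1124 to 4706 TPM and 77835 to 168070 TPM. Of the antigens gated out, Ptprc (CD45) and Pecam1 (CD31) stayed at or below 0.264 TPM, while Ly6a (Sca1) had 8.95 and 11.6 TPM in mice 2 and 4. The 8 erythroid markers together had 5080, 35.2, 1728 and 394 TPM in mice 1 to 4. Blood, endothelial and muscle markers are given beside the results that they touch.

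A median above 1 TPM was reached by 13 of the 39 Hox genes (33.3%), against 22.9% of all genes with a known length and 44.2% of protein-coding genes. In every one of the 4 mice, 6 Hox genes exceeded 1 TPM (15.4%), against 30.1% of protein-coding genes. Ordered by median TPM these 6 were Hoxa10, Hoxc9, Hoxa9, Hoxc10, Hoxa7 and Hoxd8, and the 4 highest belong to paralogue groups 9 and 10. A further 10 members had 0 counts in all mice. Of all 56980 genes, 16109 to 18907 had a count in a given library, and the share at 0 counts in all mice was not computed. Since each library is a bulk of sorted cells, a low level from fewer expressing cells and one from less RNA per cell cannot be told apart.

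**Figure D1:**
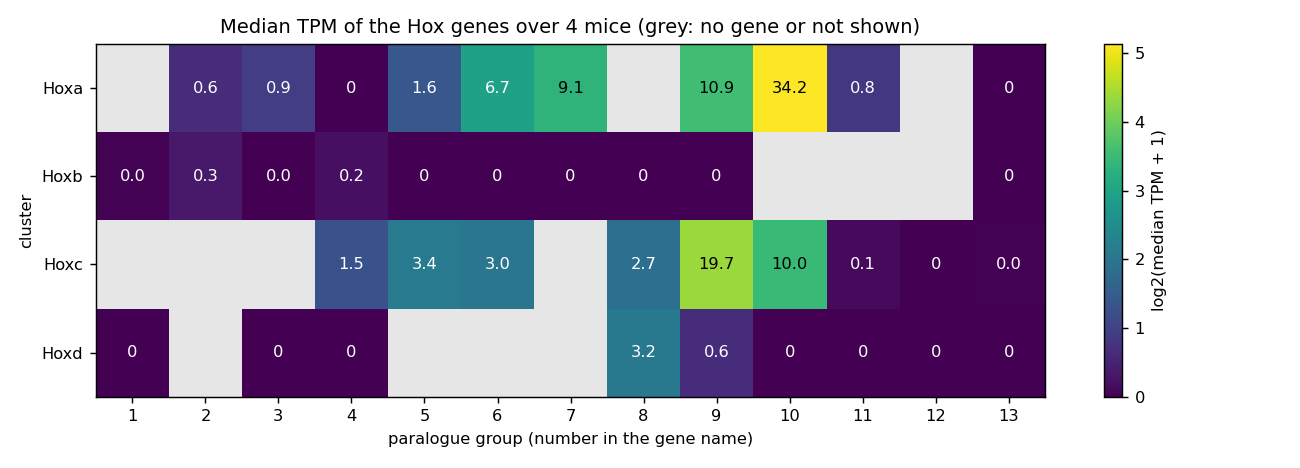
The grid gives the median TPM over 4 mice of each Hox gene, with clusters as rows and paralogue groups 1 to 13 as columns, and colour on a log2(median TPM + 1) scale; grey cells hold no gene or a value that is not shown. The highest medians stand in groups 9 and 10 of Hoxa and Hoxc, the Hoxb row has no median above 1, and in Hoxd the one median above 1 is that of Hoxd8.

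Groups 9 and 10 came first. Hoxa10, which acts in the proximal limb and in the uterus, had 45.5, 60.2, 22.9 and 17.4 TPM in mice 1 to 4, from 2620, 2191, 1294 and 589 counts. Its median of 34.2 TPM ranked 2151st among the 21922 protein-coding genes, and its mean was 36.5 ± 19.9 TPM (SD, n = 4). It was the highest Hox gene in mice 1, 2 and 3. The gene lies on the minus strand of chromosome 6, at chr6:52231197-52240854 in GRCm38, and is protein-coding. Hoxc9, its neighbour in rank, had 21.9, 14.7, 19.6 and 19.7 TPM, and was the highest Hox gene in mouse 4. With 19.0 ± 3.08 TPM and a coefficient of variation (CV, the SD as a percentage of the mean) of 16.2% it was the steadiest of the 13 expressed members, whose median CV was 85.2%. For those 13 the median counting error was 7.69%, as 1 over the square root of the count, averaged over mice with counts. Mice without counts are left out of it, and PCR copies are taken as independent molecules. It is therefore not the CV between mice that counting alone would give. Hoxc9 lies on the plus strand at chr15:102976439-102985099.

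Hoxa9, a paralogue of Hoxc9 that is also known from blood progenitors, had 10.8, 14.4, 10.9 and 2.53 TPM, low in mouse 4 and similar in the other 3. Hoxc10, the paralogue of Hoxa10 on chromosome 15, had 3.51, 5.74, 18.4 and 14.3 TPM. Its levels were high in mice 3 and 4, in which Hoxa10 had its 2 lowest values. Group 10 as a whole had 49.1, 66.0, 41.3 and 31.7 TPM, which ranks the mice as Hoxa10 does. A link between the levels of the 2 genes was not tested. The annotated exons of Hoxc10 share 166 bases with those of Hoxc5, and read pairs that lie on both genes could be lost to either. The remaining members of these groups were lower by median or absent. Hoxd9 had 15.0 TPM in mouse 2, where it was the highest of group 9, and 0, 1.14 and 0 TPM in mice 1, 3 and 4, Hoxb9 was at no more than 1 count, and Hoxd10 was at 0 counts throughout.

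The contrast within group 10 was wide: 589 to 2620 counts of Hoxa10 per library against none of Hoxd10. For Hoxd10, 3 counts correspond to 0.160 TPM in the shallowest library. That value covers counting error only, and loss of RNA in the capture was not tested. The bases upstream of these 2 genes are shown because they are the paralogues furthest apart in level. Each line holds the 250 bases before a RefSeq start of transcription (GRCm38.p6), 5′ to 3′ on the strand of the gene. CpG dinucleotides are in capitals. Hoxa10 has 2 listed promoters and Hoxd10 has 1. The Hoxa10 line is the promoter that adjoins the annotated 5′ end of the gene, and its other promoter is not described here. The Hoxa10 window is chr6:52240855-52241104 on the minus strand and the Hoxd10 window is chr2:74691641-74691890 on the plus strand.
Hoxa10: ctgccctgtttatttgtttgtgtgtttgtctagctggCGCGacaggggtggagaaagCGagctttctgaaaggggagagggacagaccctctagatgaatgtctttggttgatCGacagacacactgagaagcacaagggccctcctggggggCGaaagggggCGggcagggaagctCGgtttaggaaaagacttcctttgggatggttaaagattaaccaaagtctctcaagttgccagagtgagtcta
Hoxd10: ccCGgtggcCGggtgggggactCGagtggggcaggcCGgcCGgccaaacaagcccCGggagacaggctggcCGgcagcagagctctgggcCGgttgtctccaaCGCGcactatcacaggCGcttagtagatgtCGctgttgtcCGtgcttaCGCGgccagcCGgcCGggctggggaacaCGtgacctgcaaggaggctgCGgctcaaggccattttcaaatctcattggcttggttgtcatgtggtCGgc
The Hoxa10 window holds 7 CpG and is 51.6% G and C, and the Hoxd10 window holds 20 CpG and is 65.6% G and C. The promoter table used has 22 of the 39 members, 7 of them expressed and 15 not. The median number of CpG was 7 in the windows of the 7 expressed members and 13 in those of the other 15, against 6 over all 32851 promoters of the table, and the ranges of the members, 3 to 28 and 2 to 35, overlapped. The letters TATAAA, searched on both strands, were in 0 of the 7 and 3 of the 15 windows (12.4% of all promoters), and CCAAT was in 3 and in 10 (33.9% of all promoters). No methylation or chromatin was measured.

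Beyond groups 9 and 10, only Hoxa7 and Hoxd8 exceeded 1 TPM in each of the 4 mice. Hoxa7, which acts in the trunk skeleton, had 18.7, 4.63, 13.6 and 3.90 TPM. It was high in mice 1 and 3 and several-fold lower in mice 2 and 4. Of its exonic bases 20.4% are shared with the antisense RNA Hoxaas3, which had 100 counts in mouse 3 and at most 1 elsewhere. No strand option was given, and read pairs that lie on both genes may not have been counted. Hoxd8 had 2.20, 11.3, 2.85 and 3.63 TPM and stood apart in mouse 2. It is the highest member of the Hoxd cluster in mice 1, 3 and 4, and lies at chr2:74704615-74707933 on the plus strand.

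**Figure D2:**
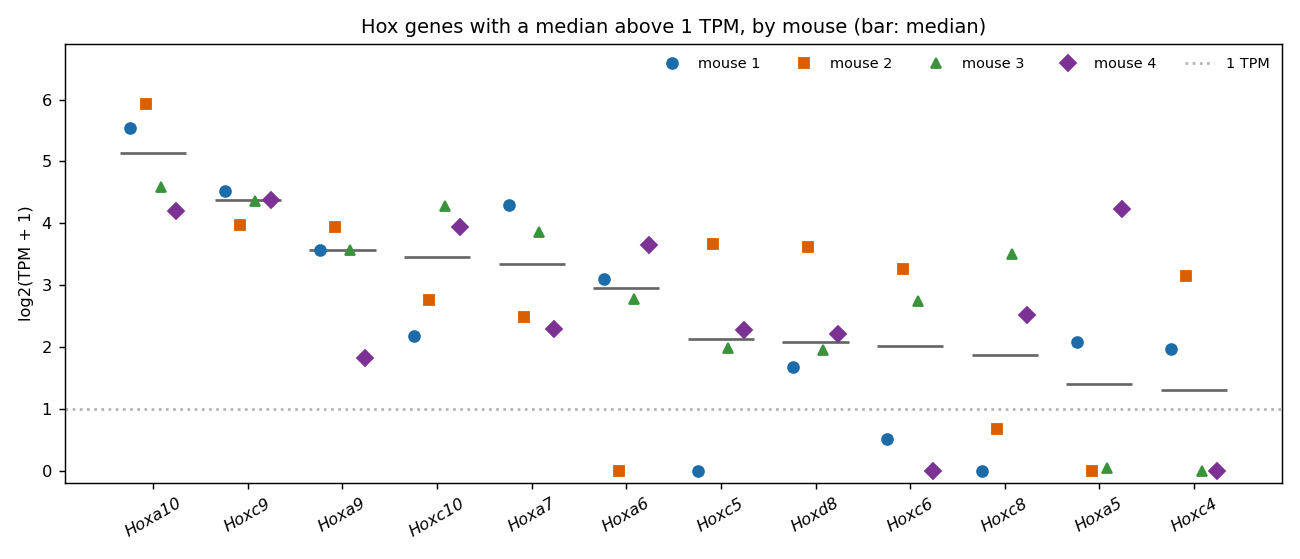
Levels of 12 of the 13 Hox genes with a median above 1 TPM are plotted on a log2(TPM + 1) scale with a symbol for each of the 4 mice and a bar at the median; the dotted line marks 1 TPM. The 6 genes Hoxa10, Hoxc9, Hoxa9, Hoxc10, Hoxa7 and Hoxd8 lie above the line in all mice, and each of the other 6 plotted falls to or near 0 in at least 1 mouse.

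Each of the other 7 expressed members was near or at 0 in at least 1 mouse. Hoxa6, a thoracic patterning gene, had 7.61, 0, 5.83 and 11.5 TPM, and so was missing from mouse 2. Hoxc5 had 0, 11.6, 2.94 and 3.82 TPM and was missing from mouse 1. Hoxc6 had 0.422, 8.55, 5.67 and 0 TPM. Both are genes of the neck and upper thorax. Hoxc8, which patterns thoracic vertebrae, had 0, 0.603, 10.3 and 4.72 TPM. Hoxa5, with roles in the neck, the lung and blood progenitors, had 3.24, 0, 0.0308 and 17.8 TPM, and was the second highest Hox gene in mouse 4. Hoxc4 had 2.92, 7.84, 0 and 0 TPM. No mouse lacked all 7 of them, and the sum over groups 1 to 8 was 48.4, 46.9, 45.9 and 71.4 TPM.

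The cutoff of 1 TPM separated neighbours with overlapping levels. Just above it lay Hoxc4, with a median of 1.46 TPM, and Hoxa5 with 1.64. Just below lay Hoxa3 with 0.903 TPM, Hoxa11 with 0.772, Hoxa2 with 0.572 and Hoxd9 with 0.569. These 4 exceeded 1 TPM in 2 mice each. Hoxa2, a gene of the second pharyngeal arch, had 12.04, 0, 0 and 1.14 TPM, and Hoxa3, a gene of the third, had 0.406, 2.14, 0 and 1.40 TPM. The order of the 13 expressed members by median changed between mice. Hoxa10 ranked 1st to 3rd and Hoxc9 1st or 2nd, whereas Hoxa9 ranged from 3rd to 11th and Hoxa5 from 2nd to 12th. Hoxc9 ranked above Hoxa10 in mouse 4, and the mean difference of Hoxa10 from Hoxc9 was 0.76 ± 0.95 (log2 of TPM + 1, SD). Hoxc9 exceeded Hoxa9 by 1.08 ± 1.06. Between neighbours from Hoxa9 downwards, as between Hoxa10 and Hoxc9, the mean log2 difference was smaller than its SD.

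Many members were present in some libraries and missing from others. Of the 21 Hox genes that exceeded 1 TPM in any mouse, 15 (71.4%) had fewer than 3 counts in another mouse, against 33.1% of the protein-coding genes that exceeded 1 TPM in any mouse. All 15 had at least 100 counts in the mouse in which they were highest, which their selection above 1 TPM in a mouse in part requires. The 4 libraries had at least 3 counts of 17, 14, 17 and 15 Hox genes, and 16, 14, 17 and 15 after each was thinned to 22738604 counts. Since PCR copies are not independent molecules, these counts and the thinning cover only the error of counting. Loss of RNA in the capture from 100 cells was not tested. The comparison was repeated among genes of similar level. Among members with a mean of 1 to 10 TPM, 14 of 16 (87.5%) had such a gap, against 41.8% of the 5727 protein-coding genes in that range. Among those with a mean of 10 to 100 TPM, 0 of 4 members and 6.98% of 4055 protein-coding genes had one. The median CV between mice was 153% for the 16 members and 84.7% for the protein-coding genes of the lower range, and 60.8% and 44.0% in the higher range. The sum over all Hox genes was 145.6, 162.5, 120.5 and 125.5 TPM, with a CV of 13.9%. A sum over many genes has a smaller CV than its members even where these vary independently. Sums over other sets of genes were not computed, so whether the Hox sum is unusually steady was not tested.

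Read by cluster, Hoxa and Hoxc carried most of the Hox level. The Hoxa sum was 109.6, 81.4, 57.8 and 65.9 TPM (78.7 ± 22.8, SD, n = 4), and the Hoxc sum was 32.9, 54.5, 57.0 and 42.6 TPM (46.8 ± 11.2). The Hoxd sum was 2.23, 26.4, 3.99 and 3.63 TPM (9.05 ± 11.6) and the Hoxb sum 0.840, 0.204, 1.69 and 13.4 TPM (4.03 ± 6.27). Mouse 2 set the Hoxd mean, which was 3.28 TPM without it, and mouse 4 set the Hoxb mean, which was 0.911 TPM without it. Hoxa took 48.0% to 75.3% of the Hox level of a mouse and Hoxc 22.6% to 47.3%. In each mouse both exceeded Hoxb and Hoxd.

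The 6 pairs of clusters and 4 further contrasts were tested on the within-mouse difference in log2(summed TPM + 1), with a two-sided permutation test that flips signs and is exact. With 4 mice its smallest possible p is 0.125, so none of the 10 could pass 0.05. Hoxa exceeded Hoxb by 4.67 ± 1.79 (log2, SD), Hoxd by 3.53 ± 1.45 and Hoxc by 0.73 ± 0.71, in 4 of 4 mice each (exact p = 0.125, Benjamini-Hochberg adjusted p = 0.208). The difference from Hoxc was 0.02 in mouse 3. It was 0.40 without mouse 1, and 0.63 with the highest member of each cluster left out (exact p = 0.5 for the 4 mice). Hoxc exceeded Hoxd by 2.80 ± 1.19 and Hoxb exceeded Hoxc in 0 of 4 mice, with a difference of -3.94 ± 1.66 (exact p = 0.125 and adjusted p = 0.208 for both). Hoxb minus Hoxd was -1.14 ± 2.53, smaller than its SD, and Hoxb was the higher in 1 of 4 mice (exact p = 0.5, adjusted p = 0.556). It was -0.02 without mouse 2, -2.07 without mouse 4 and 0.10 without the highest member of each cluster.

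**Figure D3:**
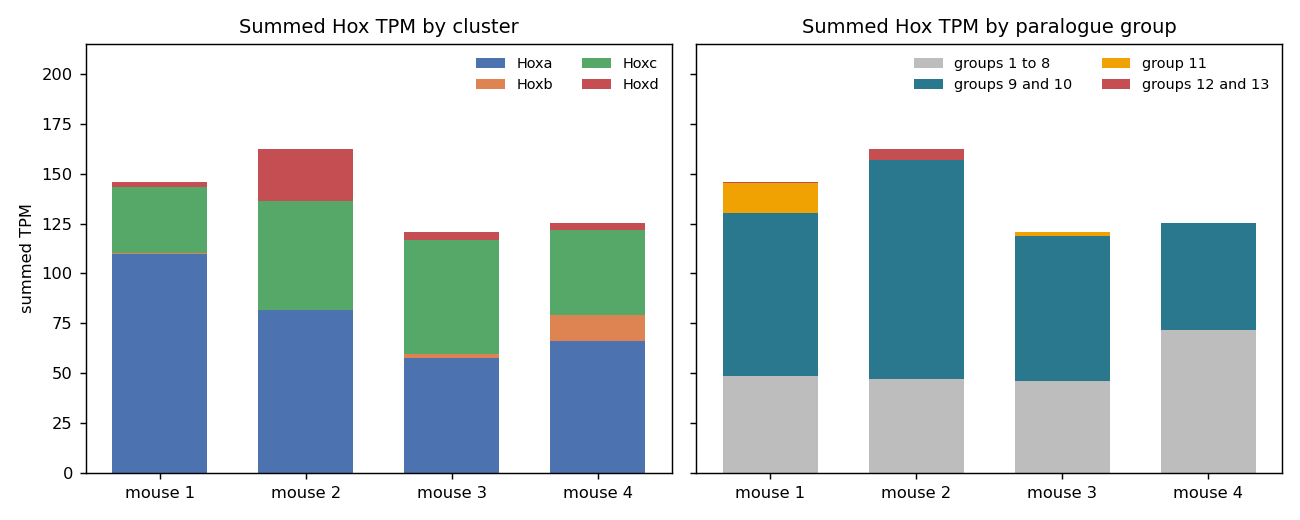
Bars give the summed TPM of the Hox genes of each mouse, stacked by cluster on the left and by paralogue group on the right; there is 1 library per bar. Hoxa and Hoxc make up most of each bar, groups 9 and 10 range between 54.0 TPM, in mouse 4, and 110.1 TPM, in mouse 2, and group 11 is visible mainly in mouse 1.

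Within a cluster the levels followed the order of the genes only in part. By median the Hoxa level was highest at Hoxa10, lower at Hoxa9 and Hoxa7 and lower again towards Hoxa3, while Hoxa4, which lies among them, had 0 counts in all mice and Hoxa13 at most 1 count. Hoxc had its highest medians at Hoxc9 and Hoxc10. In single mice the order differed, since Hoxa5 was slightly above Hoxa10 in mouse 4, Hoxc11 exceeded Hoxc10 in mouse 1, and Hoxc5, Hoxc6 and Hoxc4 exceeded it in mouse 2. In Hoxd, counts were found at Hoxd8 and Hoxd9, and the 4 genes on their 5′ side, Hoxd10, Hoxd11, Hoxd12 and Hoxd13, had 0 counts in every library, as did Hoxd3 and Hoxd4 on the other side. Hoxd1 had 1 count in 1 library. Annotated overlaps lie in this region. Hoxd3 and Hoxd4 share exonic bases with each other, with the RNA Gm28230 and with Hoxd3os1, and Hoxd3os1 had 46, 0, 249 and 29 counts, so pairs that fell on several of these genes may not have been counted.

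**Figure D4:**
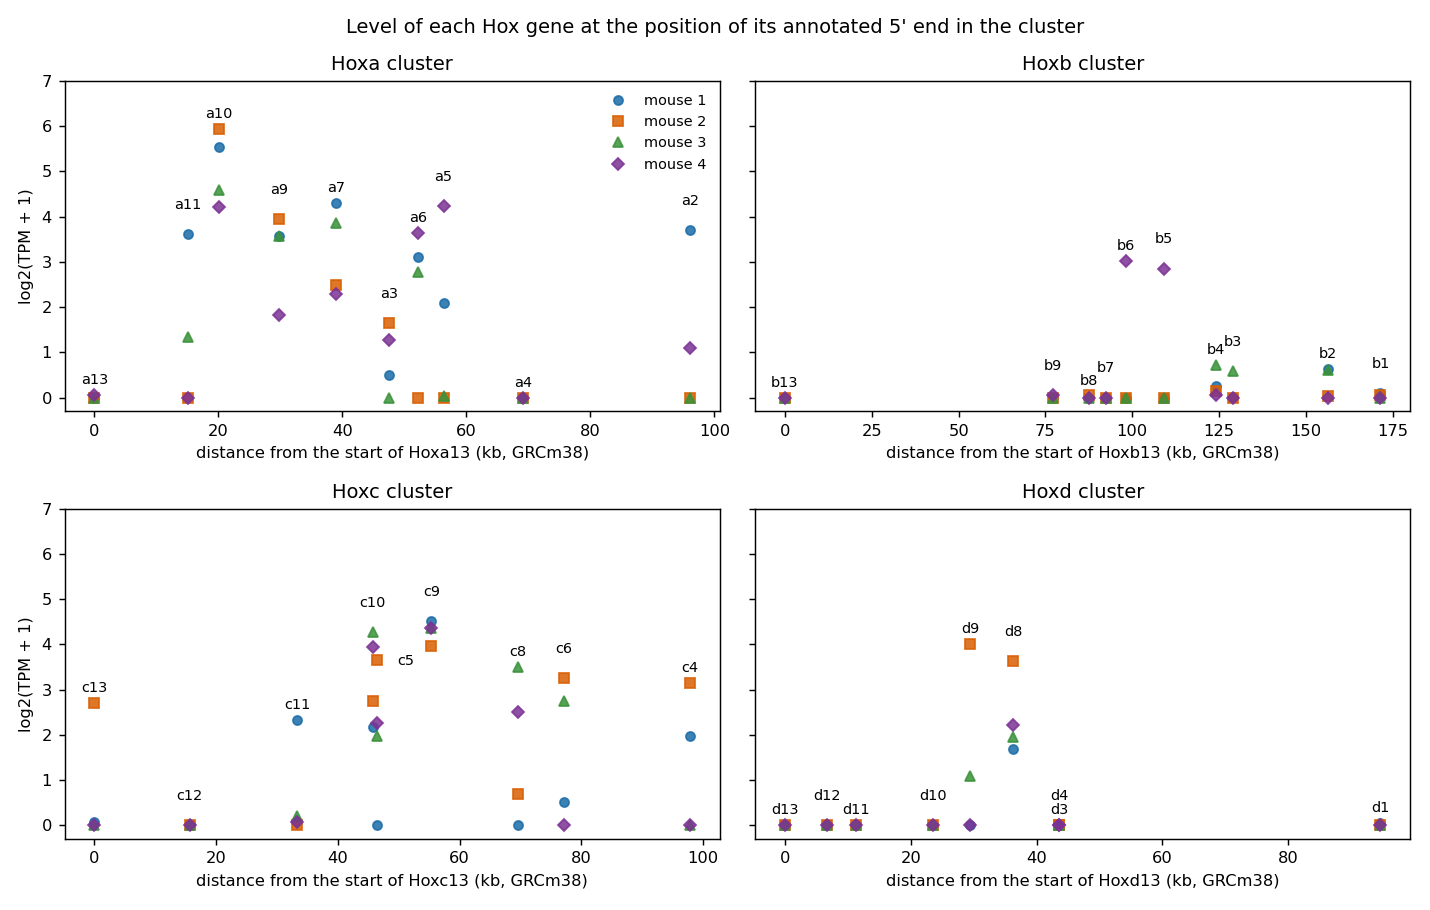
The level of 38 Hox genes, as log2(TPM + 1) in each of the 4 mice, is plotted against the distance in kb of its annotated 5′ end from that of the gene numbered 13, with a panel for each cluster; labels give cluster letter and number. The outermost annotated end of each gene is used, so some genes are drawn out of their order in the cluster. Here c5 lies between c10 and c9, a3 lies between a7 and a6, and d3 and d4 nearly coincide. By median, levels are highest at a9 and a10 and at c9 and c10, and in the Hoxd panel only d8 and d9 rise above 0 TPM visibly.

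The Hoxb cluster, whose genes are used in the trunk, hindbrain and blood, had 10 members and none with a median above 1 TPM. Its 2 highest values were in mouse 4, with 7.10 TPM of Hoxb6 and 6.22 TPM of Hoxb5 from 144 and 179 counts, and both genes had 0 counts in the other 3 mice. Hoxb4, a gene known for its role in blood stem cells, had 9, 3, 29 and 1 counts. Hoxb2 had 34, 1, 32 and 0 counts and Hoxb3 had 1, 0, 37 and 0, and these shared 27.3% and 52.9% of their exonic bases with the antisense RNA Hoxb3os, which had 0.257, 0, 1.49 and 1.80 TPM. Hoxb1 reached 3 counts in 1 mouse, Hoxb8 and Hoxb9 were at no more than 1 count, and Hoxb7 and Hoxb13 had 0 counts everywhere.

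The 10 markers of blood stem and progenitor cells summed to 12.7, 19.98, 24.8 and 19.5 TPM in mice 1 to 4, highest in mouse 3. Of them Runx1, which bone-forming cells express as well, was the one with a median above 1 TPM, with 10.4, 17.8, 21.5 and 12.2 TPM. The other 9, a list made after the values were seen, summed to 2.27, 2.14, 3.32 and 7.35 TPM, highest in mouse 4. They did not move together. Gata2 (1.11 and 3.82 TPM in mice 3 and 4), Vav1 (1.13 TPM) and Cd48 (0.895 TPM) were highest in mouse 4, Kit was highest in mouse 2 (2.09 TPM, against 1.44 in mouse 4), Cd34 (1.32 TPM) and Mpo (0.879 TPM) in mouse 3 and Spi1 (2.24 TPM) in mouse 1. Mecom had at most 5 counts and Flt3 had 0. Ptprc had 50 counts in mouse 4 and at most 2 elsewhere. The part of blood cells in the Hoxb5, Hoxb6 and Hoxa5 levels of mouse 4 was not tested. Endothelial markers summed to 0.0465 to 1.28 TPM, with Cdh5 and Kdr at 0 counts, and muscle markers to 0.126 to 3.996 TPM, with Ckm, Myod1 and Myf5 at 0 counts. Chondrocyte markers summed to 218.8 to 352.4 TPM, nearly all of it Col11a2.

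For the code of limb segments, the posterior groups were read in turn. Groups 9 to 13 summed to 97.1, 115.6, 74.6 and 54.1 TPM, which was 43.1% to 71.1% of the Hox level. They exceeded groups 1 to 8 in 3 of 4 mice, by 0.64 ± 0.73 (log2, SD), and mouse 4 had the opposite order with -0.39 (exact p = 0.25, adjusted p = 0.312). The difference was 0.99 without mouse 4 and 0.24 without the highest member of each side. Most of this came from groups 9 and 10, with 81.8, 110.1, 72.9 and 54.0 TPM. Group 11, that of the middle segment, had 15.3, 0, 1.69 and 0.0479 TPM. Groups 9 and 10 exceeded it in 4 of 4 mice, by 4.91 ± 1.90 (exact p = 0.125, adjusted p = 0.208). They hold 7 genes and group 11 holds 3.

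Group 11 was present mainly in mouse 1. Hoxa11, needed for the middle segment of the limb, had 11.2 TPM there from 451 counts, 1.54 TPM in mouse 3 and 0 counts in mice 2 and 4. Of its exons 800 bases are shared with the antisense RNA Hoxa11os, which had 0 counts in all libraries. Hoxc11 had 4.05 TPM in mouse 1 and at most 0.143 TPM elsewhere, and Hoxd11 had 0 counts. Mouse 1 was also the library with the most erythroid RNA, and whether this bears on these values was not tested.

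Of the 6 genes of groups 12 and 13, Hoxc13, known from hair and nails, had 5.52 TPM in mouse 2 from 151 counts. The others had at most 1 count in any library, among them Hoxa13 and Hoxd13, the genes of the digits, and Hoxb13, a gene of the prostate and tail. Group 11 minus groups 12 and 13 was 0.67 ± 2.78 (log2, SD; exact p = 0.625, adjusted p = 0.625). Group 11 was the higher in mice 1 and 3 and the lower in mouse 2, and in mouse 4 each side had 1 count, below the floor. The difference was -0.42 without mouse 1, 1.80 without mouse 2 and 0.42 without mouse 3.

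The 10 members with 0 counts in all mice were Hoxa4, Hoxb7, Hoxb13, Hoxc12, Hoxd3, Hoxd4, Hoxd10, Hoxd11, Hoxd12 and Hoxd13. For these a floor of 3 counts corresponds to at most 0.282 TPM, the value of Hoxc12, the shortest of them, in mouse 4. Lower levels were not detectable at this depth, and the floor covers counting error only.

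Of 16 noncoding RNAs of the clusters in the table, 10 had 0 counts everywhere, including Hotair, Haglr and the 6 microRNA genes. The short products of microRNA genes are not captured by these poly(A) libraries. The share of all genes at 0 counts in all mice was not computed, so the 10 are not read as a result. Hotairm1 is transcribed from the head-side end of the Hoxa cluster. It had 12.98, 12.6, 27.9 and 31.5 TPM, and was the one with a median above 1 (6.25%, against 22.9% of all genes with a length). Among the 8 genes that flank the clusters 6 had a median above 1 TPM (75.0%, against 44.2% of protein-coding genes). Skap2 and Hibadh, beside Hoxa, had medians of 21.6 and 9.02 TPM and Mtx2, beside Hoxd, had 29.3 TPM, whereas Skap1 and Ttll6, beside Hoxb, had at most 1 count.

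Hox proteins bind DNA together with homeodomain cofactors of the TALE class. Of the 9 genes of that class 7 had a median above 1 TPM (77.8%, against 44.2% of protein-coding genes). In every mouse 2 of the 9 exceeded 1 TPM, Meis3 among them, against 30.1% of protein-coding genes. Meis3 was the highest, with 25.4, 33.4, 15.7 and 10.03 TPM. Meis1 had 3.04, 0.00853, 2.40 and 1.61 TPM and Meis2 2.45, 0.00746, 0.798 and 2.13 TPM, each with 1 count in mouse 2. Pbx3 was present in mice 1 and 3, with 4.48 and 5.08 TPM, and had at most 0.0317 TPM in mice 2 and 4. Pknox1 had 0.303, 1.19, 4.44 and 6.23 TPM and Pbx2 4.20, 4.96, 0.572 and 0.824 TPM. Pbx4 had at most 3 counts.

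Polycomb proteins keep Hox genes silent, and Trithorax proteins keep them active. Of 22 genes of both groups and Ctcf, 18 had a median above 1 TPM (81.8%, against 44.2% of protein-coding genes). In every mouse 11 of the 22 exceeded 1 TPM, against 30.1% of protein-coding genes. Rnf2, an enzyme subunit of Polycomb repressive complex 1, had 26.2, 36.6, 20.7 and 13.2 TPM. Men1, part of the Trithorax-type complex that activates Hoxa genes, had 16.8, 18.1, 19.9 and 12.4 TPM. Ctcf, which binds boundaries within the clusters, had 12.8, 4.59, 22.7 and 10.6 TPM. Eed and Suz12, core subunits of Polycomb repressive complex 2, had medians of 9.03 and 6.03 TPM, and Ezh1, one of its enzymes, 5.001 TPM.

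Other genes of limb identity gave a mixed picture. Of 31 limb-type and limb-axis genes, 13 had a median above 1 TPM (41.9%, against 44.2% of protein-coding genes). In every mouse 7 exceeded 1 TPM, as did 30.1% of protein-coding genes, and 3 (Lmx1b, Prrx2 and Sall3) had 0 counts. Dlx5, which also acts in bone formation, had 186.4, 102.4, 304.4 and 149.1 TPM. Shox2, required for the proximal segment of the limb, had 62.3, 125.3, 120.8 and 124.4 TPM, above any Hox gene in each mouse. Prrx1, a marker of limb mesenchyme, had 19.4, 10.6, 18.0 and 12.02 TPM, and Tbx15 had 10.5, 17.2, 24.4 and 11.9 TPM. Irx5 had 42.7, 20.9, 10.3 and 4.36 TPM, Tbx2 had 15.6, 4.16, 17.0 and 22.4 TPM, and Irx3, which acts with Irx5 in the early hindlimb, had 15.0, 35.1, 26.1 and 0.315 TPM. Osr1, a gene of connective tissue, had 61.8 and 15.2 TPM in mice 1 and 3 and 0 counts in mice 2 and 4.

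The genes that set hindlimb against forelimb identity were low. Pitx1, which specifies the hindlimb, had 2.87, 0.169, 3.90 and 0.0364 TPM, from 134, 5, 179 and 1 counts. Tbx4, its hindlimb partner, had 1.99 TPM in mouse 3 and 0 counts elsewhere. Tbx5, which specifies the forelimb, had 6.14 TPM in mouse 3 from 496 counts and at most 3 counts in the other mice. Pitx1 and Tbx4 together minus Tbx5 was 0.52 ± 0.95 (log2, SD), which is less than its SD (exact p = 0.25, adjusted p = 0.312). The difference rested on mouse 1, without which it was 0.05. In mouse 3, where both sides were well above the floor, it was -0.05, and mice 2 and 4 had 5 against 3 counts and 1 against 0.

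Of 13 genes of cranial neural crest and head, 4 (Otx2, Pax7, Dlx1 and Foxd3) had 0 counts in all mice. A median above 1 TPM was reached by 1 of the 13 (7.69%, against 44.2% of protein-coding genes). The one was Six2, which also acts in other mesenchyme, with 7.91, 5.35, 3.71 and 0 TPM. Single libraries held 2 others above 1 TPM, named here after their values were seen: Alx1 with 7.17 TPM in mouse 2 and Barx1 with 5.57 TPM in mouse 1.

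**Figure D5:**
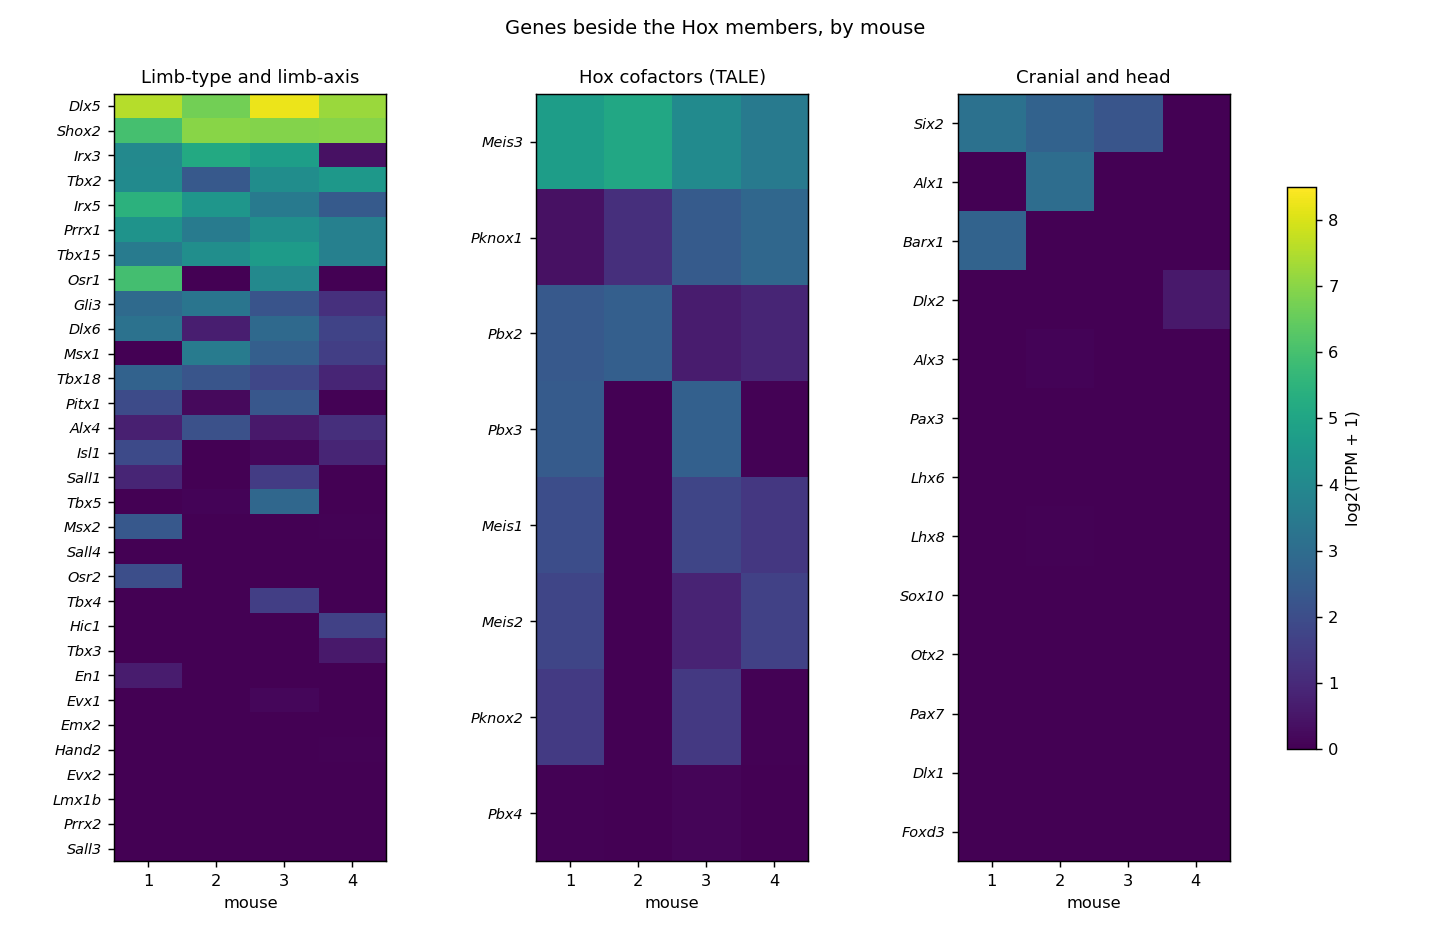
Heat maps give log2(TPM + 1) in each of the 4 mice for 31 limb genes, 8 of the 9 TALE cofactors and 13 cranial and head genes, ordered by median TPM. Dlx5 and Shox2 lead the limb genes and Meis3 the cofactors, and most of the cranial genes are at or near 0 TPM.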

How the data were processed

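Poly(A) RNA of 100 sorted cells per mouse was turned into full-length cDNA by oligo-dT priming with a template switch, followed by PCR and tagmentation, as the study's methods and the labels describe. Alignment by the authors was to GRCm39 with STAR 2.7.10, and pairs that mapped uniquely were assigned to exons by featureCounts (Subread 1.6.5), with no strand option given, after which the authors deposited raw counts of 56980 genes, not normalized. Each column belongs to the mouse whose sample code it carries.

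TPM was computed in Python 3.11.15 from those counts: each count was divided by the merged exon length of GENCODE M21 (GRCm38, joined by gene identifier, so lengths can differ from the authors' annotation), and each library was scaled to 1000000 over the 52125 genes with a length. The 4855 genes without one were left out. Coordinates are those of GRCm38 and none was converted. Between 96.1% and 98.2% of a library's counts had a length. Depth was 22738604 to 43545349 counts per library, and 3 counts, the floor used, correspond to 0.0689 to 0.132 counts in 1000000 (CPM). Since PCR copies are not independent molecules, a floor covers only the error of counting.

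All 4 libraries form 1 group. Sums over Hox genes were compared within each mouse on log2(TPM + 1) with a two-sided permutation test that flips signs, computed exactly, and Benjamini-Hochberg adjustment over 10 comparisons. The p-values cover the spread between these 4 mice. Every member was described, those with a median above 1 TPM by each mouse, and from each further list at most the 8 highest genes with such a median, together with genes at 0 counts and genes of a comparison. Values of members just under the cutoff, single-library members and list genes outside that rule were named after their values were seen. The members and lists were chosen with earlier results of these data known. A Hox gene above the cutoff and 2 list genes are counted in the totals and not reported here by name. The cutoff and test code was tested on simulated data. Alternatives were other lengths and denominators, TMM factors (edgeR 4.0.16), DESeq2 1.42.0 size factors, an upper quartile, other cutoffs and summaries, thinning, another pseudocount and leaving out each mouse. These rescalings moved a library by -0.18 to 0.14 on the log2 scale.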

Additional observations from a re-analysis of the deposited data

Results flagged for a closer look

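The 33 values compared across the 4 mice were the 25 Hox genes with at least 3 counts in a mouse, sums, and the number of Hox genes detected. Members with fewer counts were left out. In each of the 33, the gap between the most distant mouse and its nearest neighbour was divided by the whole range. In 12 of them the share was above the 95% critical value of Dixon's test for 4 samples. Chance flags about 1 in 20 where values are normally distributed. Many Hox genes lacked counts in some mice, and a gene counted in 1 mouse only always exceeds that critical value. The rate to expect here is therefore unknown, and the rate among other genes was not computed. The values share libraries and sums share members, so they are not independent.

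Mouse 1 stood apart for Hoxa2, with 12.04 TPM against 0 to 1.14 in the others (a gap of 0.905 of the range), for Hoxa11, with 11.2 TPM against 0 to 1.54 (0.862), and for Hoxc11, with 4.05 TPM against 0 to 0.143 (0.965). Mouse 2 stood apart for Hoxd9, with 15.0 TPM against 0 to 1.14 (0.924), Hoxd8, with 11.3 TPM against 2.20 to 3.63 (0.843), Hoxc13, with 5.52 TPM against 0 to 0.0462 (0.992), and the Hoxd sum, with 26.4 TPM against 2.23 to 3.99 (0.927). Mouse 3 stood apart for Hoxb3, with 0.504 TPM against 0 to 0.0134 (0.973). Mouse 4 stood apart for Hoxb5 and Hoxb6, which had 6.22 and 7.10 TPM there and 0 counts in the others (1.0 for both), for the Hoxb sum, with 13.4 TPM against 0.204 to 1.69 (0.887), and for the sum over groups 1 to 8, with 71.4 TPM against 45.9 to 48.4 (0.9). In each of these the distant mouse was the highest.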

How the results depend on the processing

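The 13 Hox genes with a median above 1 TPM became 20 by the mean over mice, 6 with the cutoff applied in every mouse, 6 at a cutoff of 5 TPM and 6 where each mouse had to have 10 counts or more. Leaving out each mouse gave 12 to 13 genes, with 2 to 3 replaced each time, and the other alternatives gave 13 to 17. The Hoxa mean of 78.7 TPM was 102.6 CPM without a length and 124.7 TPM with the 10 highest genes left out of the denominator, and the Hoxc mean of 46.8 TPM was 74.1 under the latter. Leaving out each mouse gave 68.4 to 85.6 TPM for Hoxa, 0.911 to 5.31 for Hoxb, 43.3 to 51.4 for Hoxc and 3.28 to 11.3 for Hoxd. Of 149 recomputed differences 2 were reversed. Hoxb minus Hoxd was 0.10 when the highest member of each side was left out, and group 11 minus groups 12 and 13 was -0.42 without mouse 1, with a range of -0.42 to 1.80 over the mice left out. The causes were not tested. Leaving out the highest member could not be applied to Pitx1 and Tbx4 against Tbx5. No paired analysis was possible because the 4 libraries form 1 group, so that no replicate number is shared between groups. The comparisons were made within each mouse. With 4 mice the permutation test could not pass 0.05, 100 cells per library limit what is captured, and the counting was unstranded, which touches members that overlap antisense RNAs.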
